A study of Mus musculus with 6 samples.

Results

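Photoreceptor transcription factors were followed in retinal RNA of knockout and wildtype mice at postnatal day 7. The set was defined by 8 gene symbols, Crx, Nrl, Nr2e3, Otx2, Neurod1, Rorb, Esrrb and Prdm1, and every probe set that the platform annotation gave to 1 of them alone was taken. This found 10 probe sets among 22626 that were not controls, for 7 of the 12393 genes with a probe set of their own. Nr2e3 is not listed in the annotation used and was not analysed here. Crx, Neurod1 and Esrrb each had a pair of probe sets, and the other 4 genes had 1 probe set each. The samples were 3 knockout retinae, hemizygous (-/Y) for the targeted allele, and 3 wildtype retinae, both labelled as C57BL/6. Each was hybridised to 1 Affymetrix array. The labels do not say how many animals gave the RNA of an array, so the tests rest on the variation among these 6 samples, part of which may be technical.

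These factors act in sequence while photoreceptors form. Otx2, a homeodomain protein, commits newborn cells to the photoreceptor and bipolar lineages and activates Crx, its close relative, which switches on rod and cone genes. Nrl, a basic leucine zipper protein, directs precursors to the rod fate and works with Crx on rod promoters, while Nr2e3, a nuclear receptor downstream of Nrl, keeps cone genes off in rods. Rorb is a nuclear receptor needed for Nrl expression in the mouse. Prdm1 is a zinc finger repressor that holds bipolar genes down in photoreceptor precursors. Neurod1, a basic helix-loop-helix factor, and Esrrb, an orphan nuclear receptor, sustain mature photoreceptors. In the mouse at this age most rods have been born and are building outer segments.

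The promoters below show where motifs of such factors lie in the genes measured. Each is the window of 250 bases before to 50 bases after a RefSeq start site in GRCm38.p6, given 5′ to 3′ on the gene's strand. Capitals mark any of 6 motifs on either strand: TAATCC for Crx and Otx2, TGCTGA for the Nrl half-site, CAGATG for Neurod1, AGGTCA for Rorb and Esrrb, AAGTCA for Nr2e3 and GAAAGT for Prdm1. The first 4 are promoters of the factors, and Sag, the rod arrestin, stands for their targets. They lie at chr7:15879906-15880205 (minus strand, Crx), chr14:48665060-48665359 (minus strand, the third of 4 Otx2 start sites in the table), chr14:55524203-55524502 (minus strand, Nrl), chr2:79456587-79456886 (minus strand, Neurod1) and chr1:87803430-87803729 (plus strand, Sag).
Crx: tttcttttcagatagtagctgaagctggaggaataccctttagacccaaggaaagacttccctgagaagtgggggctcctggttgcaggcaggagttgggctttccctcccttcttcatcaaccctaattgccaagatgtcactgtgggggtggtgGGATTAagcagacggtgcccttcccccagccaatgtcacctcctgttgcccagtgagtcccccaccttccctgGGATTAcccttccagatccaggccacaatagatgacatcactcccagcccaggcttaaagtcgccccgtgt
Otx2: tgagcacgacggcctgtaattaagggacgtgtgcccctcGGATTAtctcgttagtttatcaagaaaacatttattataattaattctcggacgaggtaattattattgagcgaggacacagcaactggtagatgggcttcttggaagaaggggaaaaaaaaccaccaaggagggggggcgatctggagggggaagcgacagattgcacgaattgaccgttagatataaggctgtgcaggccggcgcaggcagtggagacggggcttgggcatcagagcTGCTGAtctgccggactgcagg
Nrl: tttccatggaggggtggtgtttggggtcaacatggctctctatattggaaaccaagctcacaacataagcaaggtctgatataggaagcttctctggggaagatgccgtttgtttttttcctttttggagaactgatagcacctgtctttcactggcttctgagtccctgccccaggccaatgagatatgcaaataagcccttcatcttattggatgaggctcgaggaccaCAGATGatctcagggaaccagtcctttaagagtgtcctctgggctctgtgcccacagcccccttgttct
Neurod1: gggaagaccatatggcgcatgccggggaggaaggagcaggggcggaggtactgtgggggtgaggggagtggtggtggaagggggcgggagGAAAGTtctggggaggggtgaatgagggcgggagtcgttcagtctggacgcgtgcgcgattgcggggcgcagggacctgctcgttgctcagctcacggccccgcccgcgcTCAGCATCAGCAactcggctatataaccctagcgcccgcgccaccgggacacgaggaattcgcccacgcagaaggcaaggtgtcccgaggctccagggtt
Sag: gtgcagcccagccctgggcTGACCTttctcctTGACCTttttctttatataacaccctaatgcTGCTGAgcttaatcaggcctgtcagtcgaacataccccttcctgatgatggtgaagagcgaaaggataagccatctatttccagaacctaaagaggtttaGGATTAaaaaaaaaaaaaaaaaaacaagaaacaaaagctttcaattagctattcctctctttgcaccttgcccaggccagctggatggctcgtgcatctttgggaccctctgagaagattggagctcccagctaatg

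The Crx promoter held TAATCC on the opposite strand at 2 positions, beginning 94 and 21 bases before the start site. The Otx2 promoter held TAATCC on the opposite strand 211 bases before its start and TGCTGA from base 29 after it. The Nrl promoter held CAGATG 19 bases before its start. Neurod1 held TGCTGA on the opposite strand at 2 adjoining positions, 50 and 44 bases before its start. In Sag, TAATCC lay 87 bases before the start on the opposite strand and TGCTGA 187 bases before it, and AGGTCA occurred at 2 positions. TAATCC was present in 2 of 13 promoters of the factors (15.4%) and in 13 of 28 promoters of rod target genes (46.4%), against 7.06% of all 32851 promoters in the table. For TGCTGA the shares were 30.8% of the factors' promoters and 32.1% of those of rod target genes, against 19.5% of all promoters. For AGGTCA they were 0 of 13 and 10 of 28 (35.7%), against 16.3%. The rod target genes were listed as targets of Crx and Nrl, so their TAATCC and TGCTGA shares depend on that choice. A match describes letters in a window and is not evidence of binding.

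Signals are MAS5 intensities, 1 value per probe set and array, brought to a common trimmed mean. Trimmed means before rescaling were 263 to 304 in knockout arrays and 171 to 312 in wildtype arrays. Knockout array 1 stood apart: its correlation with the other arrays was 0.914 to 0.936, against 0.958 to 0.979 among the other 5. The ratio of 3′ to 5′ signal of the Actb control, a measure of RNA integrity, was 2.17, 1.69 and 1.90 in knockout arrays and 1.64, 1.44 and 1.59 in wildtype arrays. An exact permutation test, two-sided, gave p = 0.1, and 3 against 3 samples can give no smaller value. The 5′ probe set of the 18S control read 609 in knockout array 1 and 2573 in wildtype array 2, and 38.8 to 54.9 in the other 4. The rod gene Pde6b, a phosphodiesterase subunit, had 3042 to 4042 in knockout and 3381 to 3726 in wildtype arrays, while the rod genes Grk1 and Gucy2e lay under the filter for testing. The pigment epithelium gene Rpe65 had 65.6 to 76.8 in knockout and 44.4 to 56.7 in wildtype arrays, with a mean below that filter. Higher knockout values without overlap, as here, occurred in 4.05% of all tested probe sets. Of the 8 tested pigment epithelium markers, 5 had positive and 3 negative values, and the groups overlapped in all 8.

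No photoreceptor transcription factor passed the test. A probe set was tested if its mean signal exceeded 62.4, the 40th percentile, which left 13575 probe sets, among them 9 of the 10 probe sets of the factors. In limma, 0 of these 9 passed an adjusted p (Benjamini-Hochberg) of 0.05, where 0.0147% of all tested probe sets did (2 of 13575). At an unadjusted p under 0.05 the count was also 0 of 9, against 3.82% of all, of which 2.53% were lower and 1.28% higher in the knockout. The groups did not overlap for 0 of 9, against 9.1% of all. The median size of the log2 fold change was 0.094 for the 9 probe sets and 0.13 for all tested probe sets. The adjusted p was 0.999 for each of the 9, and the lowest unadjusted limma p was 0.14. A p that misses the threshold does not show equality, so each tested probe set of the factors is given below with its 95% interval. In whole retina, fewer photoreceptors and less RNA per photoreceptor cannot be told apart.

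**Figure D1:**
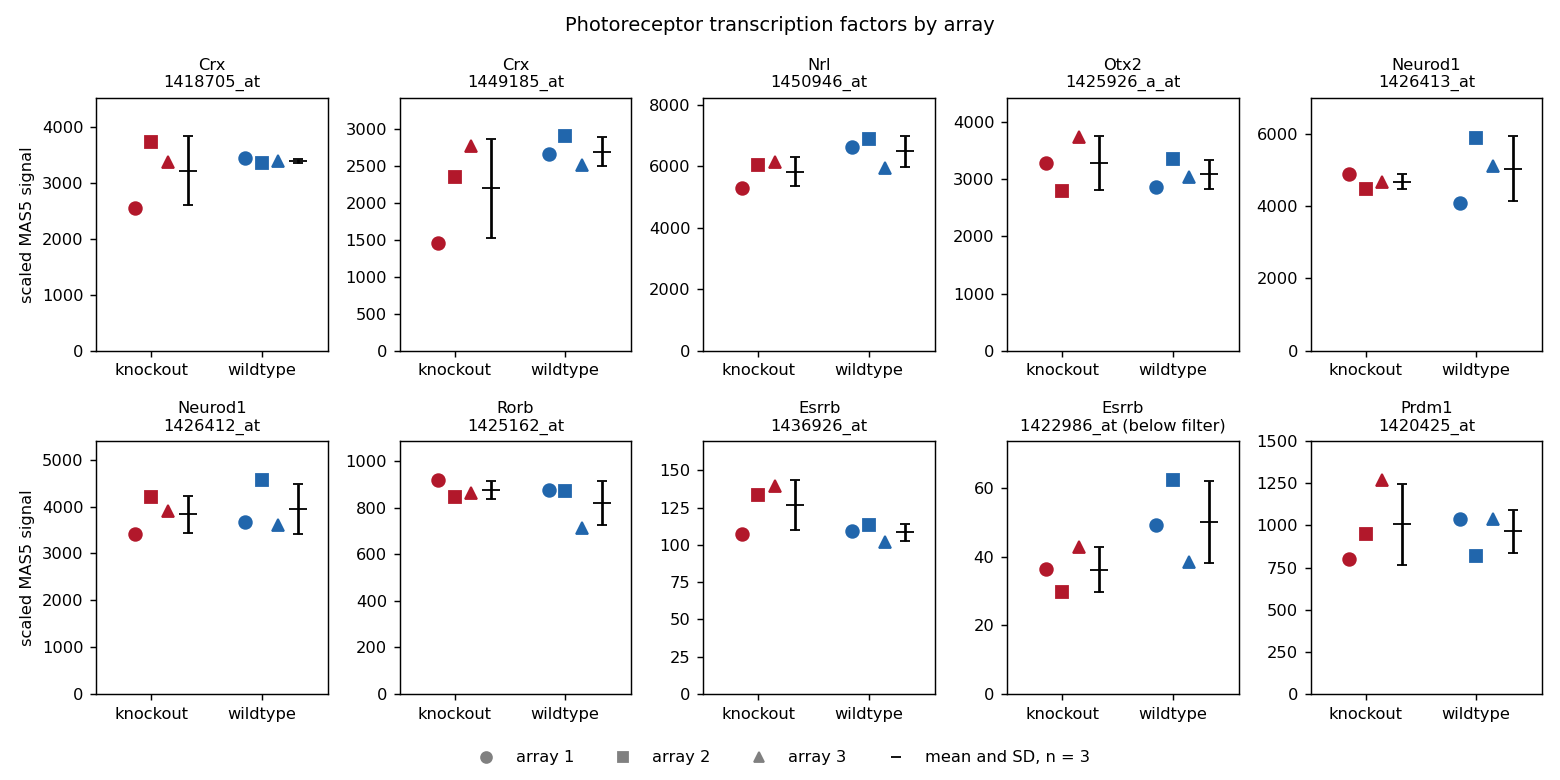
Scaled MAS5 signal (vertical axes, from 0) of the 10 probe sets of photoreceptor transcription factors on 3 knockout (red) and 3 wildtype (blue) arrays, with marker shape for the array number and black bars for mean and SD. The groups overlap in every panel, and knockout array 1 is the lowest of the 6 arrays for both Crx probe sets and for Nrl.

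Otx2, at the head of the sequence, had a signal of 3290, 2798 and 3740 in knockout arrays, against 2860, 3350 and 3044 in wildtype arrays. Both the highest and the lowest of the 6 values were in knockout arrays, and the groups overlapped. The mean was 3276 ± 471 in knockout and 3085 ± 248 in wildtype retinae (SD, n = 3 each). The log2 fold change was 0.08 ± 0.13 (SE), with a 95% interval from 1.16-fold lower to 1.30-fold higher. Otx2 is also made by bipolar and pigment epithelial cells, and its probe set, 1425926_a_at, is of a type shared by transcript variants of a gene.

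Rorb had a signal of 920, 848 and 862 in knockout arrays, against 877, 873 and 711 in wildtype arrays. Wildtype array 3 was the low value, and the other 5 arrays lay close together. The mean was 877 ± 38.2 in knockout and 820 ± 94.5 in wildtype retinae (SD, n = 3 each). Its log2 fold change was 0.10 ± 0.15 (SE), with an interval from 1.17-fold lower to 1.34-fold higher. Without wildtype array 3 it was 0.0019.

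Prdm1, the repressor of bipolar genes, had a signal of 801, 946 and 1272 in knockout arrays, against 1041, 817 and 1036 in wildtype arrays. Knockout arrays 1 and 3 held the lowest and the highest of the 6 values. The mean was 1006 ± 241 in knockout and 965 ± 128 in wildtype retinae (SD, n = 3 each). The log2 fold change was 0.04 ± 0.19 (SE), with an interval from 1.31-fold lower to 1.39-fold higher. It was 0.19 without knockout array 1, and the sign turned to -0.14 without knockout array 3 and to -0.070 without wildtype array 2.

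Crx was read by a pair of probe sets made for the same transcript, and they differed in the size of the change. The brighter, 1418705_at, had 2548, 3739 and 3389 in knockout arrays, against 3447, 3362 and 3391 in wildtype arrays. The coefficient of variation was 19.0% in the knockout, with array 1 low, and 1.26% in the wildtype. Its log2 fold change was -0.09 ± 0.14 (SE), with an interval from 1.33-fold lower to 1.17-fold higher. Without knockout array 1 it was 0.066.

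The second Crx probe set, 1449185_at, had 1458, 2353 and 2771 in knockout arrays, against 2666, 2896 and 2513 in wildtype arrays. Knockout array 1 stood at 54.2% of the wildtype mean, knockout array 2 at 87.4% and knockout array 3 at 103%. The log2 fold change was -0.34 ± 0.21 (SE), and its interval, from 1.76-fold lower to 1.10-fold higher, was the widest on the lower side among the 9 tested probe sets. It was -0.073 without knockout array 1, and -0.53 without knockout array 3 (limma, under 0.05 before adjustment, adjusted p = 0.948). Across the 6 arrays the Crx pair correlated at Pearson's r = 0.84 and Spearman's rho = -0.086. Without knockout array 1 Pearson's r was -0.81 over 5 arrays.

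Nrl had a signal of 5282, 6038 and 6140 in knockout arrays, against 6619, 6873 and 5931 in wildtype arrays. Knockout array 1 was lowest, and wildtype array 3 lay below the other 2 knockout arrays. The mean was 5820 ± 469 in knockout and 6474 ± 488 in wildtype retinae (SD, n = 3 each), or 89.9% of wildtype. Its log2 fold change was -0.15 ± 0.10 (SE), with an interval from 1.30-fold lower to 1.05-fold higher. This was the narrowest interval among the 9 probe sets, and 10.3% of all tested probe sets had a smaller spread within groups. With 1 array left out, the log2 fold change ran from -0.22 (without wildtype array 3) to -0.085 (without knockout array 1). Without both knockout array 1 and wildtype array 2 it was -0.041. With quantile normalization it was -0.0096, or -0.028 relative to the median of all tested probe sets. With median scaling it was -0.059, but that scaling moved the median of all to 0.088, and relative to it Nrl was at -0.15.

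Neurod1 had 4894, 4488 and 4672 in knockout arrays, against 4096, 5890 and 5113 in wildtype arrays, by its brighter probe set, 1426413_at. All 3 knockout values lay inside the wildtype range. The mean was 4684 ± 203 in knockout and 5033 ± 899 in wildtype retinae (SD, n = 3 each). The log2 fold change was -0.09 ± 0.13 (SE), with an interval from 1.31-fold lower to 1.16-fold higher. It was -0.23 without wildtype array 1 and 0.033 without wildtype array 2. The other probe set, 1426412_at, had 3418, 4200 and 3906 in knockout arrays, against 3678, 4576 and 3613 in wildtype arrays. Wildtype array 2 was the highest of the 6 for both probe sets. The second log2 fold change was -0.04 ± 0.13 (SE), with an interval from 1.25-fold lower to 1.19-fold higher. Its sign turned to 0.042 without knockout array 1 and to 0.070 without wildtype array 2, and it was -0.11 without knockout array 2.

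Esrrb, the dimmest of the factors on these arrays, had 108, 134 and 139 in knockout arrays, against 110, 114 and 102 in wildtype arrays, by probe set 1436926_at. Knockout arrays 2 and 3 lay above all wildtype arrays and knockout array 1 among them. The mean was 127 ± 16.9 in knockout and 108 ± 5.90 in wildtype retinae (SD, n = 3 each). The log2 fold change was 0.19 ± 0.18 (SE), with an interval from 1.16-fold lower to 1.51-fold higher, and it was 0.29 without knockout array 1. The second probe set, 1422986_at, lay under the filter and was not tested. It had 36.3, 29.5 and 42.7 in knockout arrays, against 49.3, 62.4 and 38.4 in wildtype arrays, a log2 fold change of -0.31 on the scale with pseudocount 19.1. The Esrrb pair differed in sign, and the groups overlapped in both.

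**Figure D2:**
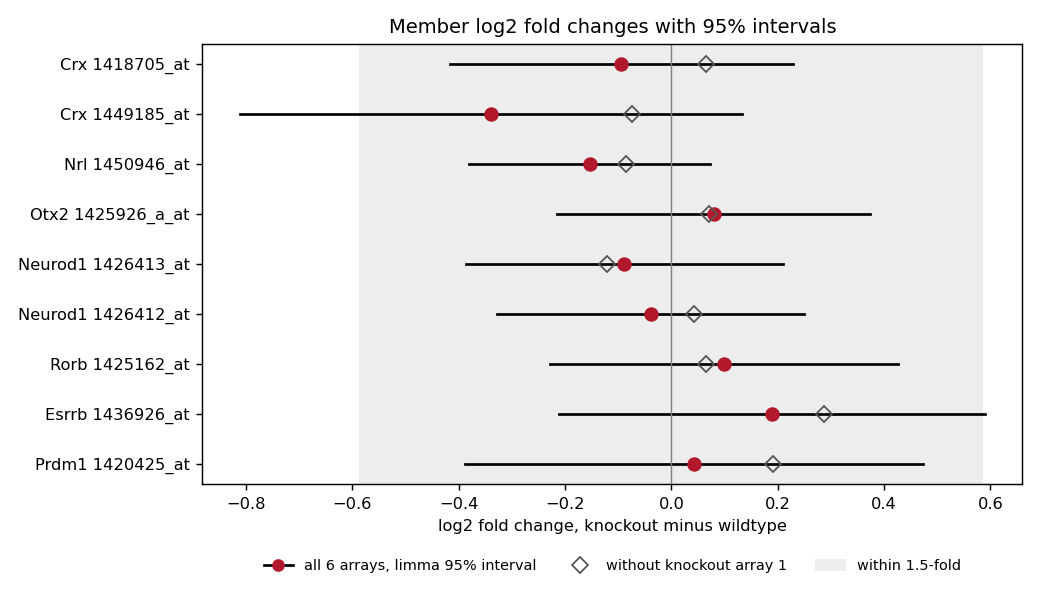
Log2 fold change (horizontal axis, knockout minus wildtype) of the 9 tested probe sets, with limma's 95% interval as a line, all 6 arrays as a filled circle and the value without knockout array 1 as an open diamond. Shading marks changes within 1.5-fold. Every interval crosses 0, and the second Crx probe set moves from -0.34 to -0.073 when knockout array 1 is left out.

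The factors did not all move together on the same arrays. Knockout array 1 held the lowest of the 6 values for 5 of the 9 tested probe sets, both of Crx, Nrl, the second of Neurod1 and Prdm1. Over all tested probe sets that array was lowest in 28.2% and highest in 25.3%. Knockout array 3 was highest for 3 of 9, Otx2, Esrrb and Prdm1, against 15.3% of all. Wildtype array 2 was highest for 4 of 9, the second Crx probe set, Nrl and both of Neurod1, against 16.7% of all. The log2 deviation from the wildtype mean on knockout array 1 was -0.41 and -0.87 for Crx, -0.29 for Nrl and -0.25 for Prdm1, but 0.17 for Rorb and 0.10 for Otx2. The Actb ratio of 3′ to 5′ signal was highest on that array, and its part in these values was not tested.

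**Figure D3:**
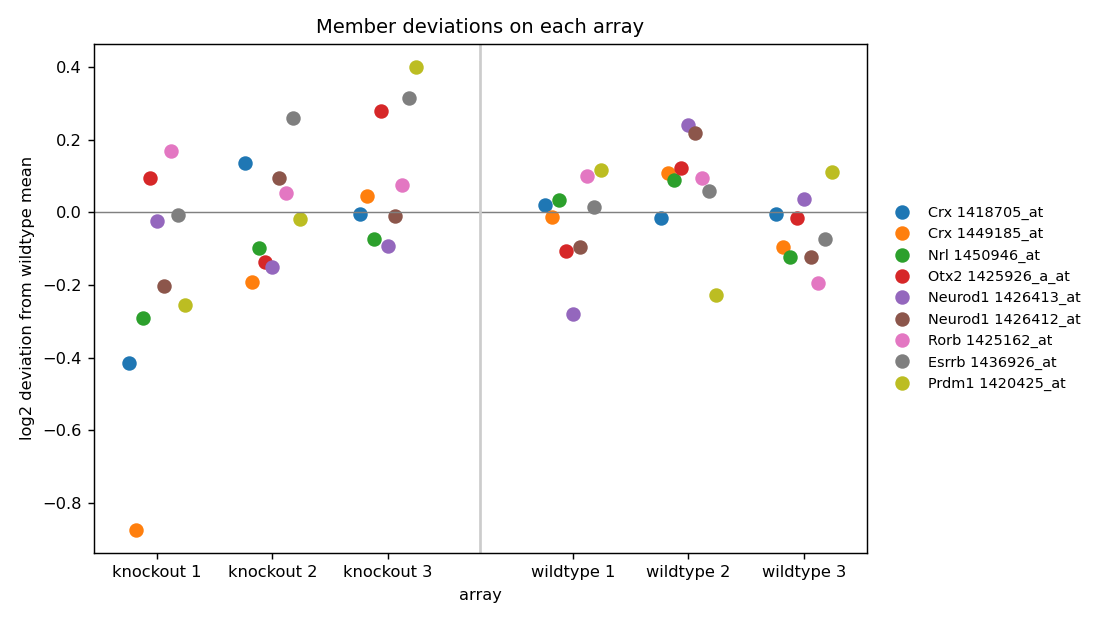
Log2 deviation of each tested probe set from its wildtype mean (vertical axis) on each array (horizontal axis), knockout arrays on the left and wildtype arrays on the right, 1 colour per probe set. The lowest points are the Crx probe sets on knockout array 1 at -0.87 and -0.41, and deviations on the wildtype arrays lie within about 0.28 of 0.

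Likeness of pattern was measured as Pearson's r of log2 signals over the 6 arrays. The named genes closest to Crx were 6820431F20Rik, Pak3 and Ap3b1, at 0.995, 0.993 and 0.993. Those closest to Nrl were Ribc1, Trmt10a and 2610005L07Rik, at 0.991, 0.990 and 0.989. For Prdm1 they were Hdac6, Fbxw11 and Scaf11 at 0.996 to 0.997, and for Rorb Mettl21a, Ddx5 and Ezr at 0.994 to 0.997. Over only 6 arrays, 137 of 13575 tested probe sets exceeded 0.95 with Crx, 71 with Nrl, 82 with Rorb and 56 with Prdm1. Otx2, Esrrb and Neurod1 had 3, 6 and 7 probe sets above 0.95. Between Crx (1418705_at) and Nrl, r was 0.68 over 6 arrays and -0.38 without knockout array 1, and Spearman's rho was 0.14. The second Crx probe set, 1449185_at, differed. With Nrl its r was 0.88 over 6 arrays and 0.73 without knockout array 1, and Spearman's rho was 0.89.

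The genes that these factors act on were read from lists, with 1 probe set per gene, that of highest mean signal. Of 36 rod target genes of Crx and Nrl, 30 had a probe set and 28 were tested. None passed (limma). An unadjusted p under 0.05 was reached by 1 of 28, Rom1, against 3.82% of all tested probe sets. Log2 fold changes were negative in 19 and positive in 9, with a median of -0.076, where all tested probe sets had 49.9% negative and a median of 0.00031. After median scaling 12 were negative and 16 positive, and without rescaling 6 were negative and 22 positive, settings in which the median of all tested probe sets was 0.088 and 0.29. The balance changed with some single arrays. Without knockout array 1 (median -0.11), wildtype array 2 (median -0.020) or wildtype array 3 (median -0.075), 15 of 28 were negative. The count was 20 without knockout array 3 (median -0.075) or wildtype array 1 (median -0.080), and 19 without knockout array 2 (median -0.062). Against the median of all probe sets in the same setting, 19 of 28 lay below it after median scaling and 18 of 28 without rescaling.

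Rom1, a protein of the disc rim, had 2654, 2764 and 2271 in knockout arrays, against 3148, 3382 and 3209 in wildtype arrays. All 3 knockout values lay below all wildtype values, as they did in 5.05% of all tested probe sets. On the log2 scale the difference was -0.34 ± 0.12 (SE), with an adjusted p of 0.999 in limma. Sag, whose promoter is printed above, had 6190, 7052 and 6910 in knockout arrays, against 7344, 7886 and 7643 in wildtype arrays, a log2 fold change of -0.18 ± 0.09 (SE). For Sag too the groups did not overlap, but the value was -0.019 with quantile normalization (-0.037 relative to the median of all). Without rescaling it was 0.13, or -0.16 relative to that median. Aipl1, a phosphodiesterase chaperone, had -0.26 and Prph2, the partner of Rom1 in disc rims, had -0.41. Both had overlapping groups.

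Rod genes were also set out by the motifs in their promoters. Among 20 tested rod genes with a promoter in the table, the 10 with TAATCC had a median log2 fold change of -0.062 (range -0.34 to 0.18). The 10 without it had a median of -0.14 (range -0.41 to 0.14). The 8 with TGCTGA had a median of 0.020 and the 12 without it -0.19. These are descriptions of few genes, and the difference was not tested.

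Cone genes, which Nr2e3 and Nrl restrain in rods, gave 0 of 10 tested genes past the threshold (limma). At an unadjusted p under 0.05 there was 1 of 10, against 3.82% of all tested probe sets. Of the 10, 7 had negative values, with a median of -0.072, and 5 of 10 were negative without knockout array 2 (median -0.026) or without knockout array 3 (median -0.039), but 9 of 10 without wildtype array 1 (median -0.11). After median scaling 5 of 10 were negative and 7 of 10 lay below the median of all. That 1 gene was Opn1mw, the medium-wavelength cone opsin, with 16.9, 85.4 and 45.3 in knockout arrays, against 78.0, 81.7 and 127 in wildtype arrays. Its mean was 49.2 in knockout and 95.4 in wildtype arrays, so it exceeded the filter of 62.4 only through the wildtype arrays. The value on knockout array 1 lay below the pseudocount of 19.1. Knockout array 2 lay inside the wildtype range, and the log2 fold change of -0.85 was -0.45 without knockout array 1. Opn1sw, the short-wavelength opsin, had 1722, 1711 and 1608 in knockout arrays, against 1560, 1762 and 1431 in wildtype arrays, a log2 fold change of 0.09 ± 0.13 (SE). Pde6h and Cngb3, a cone phosphodiesterase subunit and a cone channel subunit, had -0.12 and -0.14, and without knockout array 1 the values were -0.18 and -0.048. Without knockout array 3 Pde6h was at 0.0072.

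Of 26 co-regulators of photoreceptor genes, 23 had a probe set and 19 were tested. None passed (limma), 0 had an unadjusted p under 0.05, and 14 had positive values with a median of 0.18, where 49.9% of all tested probe sets were negative. The median was 0.062 without wildtype array 2 (12 positive) and 0.083 without knockout array 3 (11 positive). Pias3, which modifies Nr2e3 and Crx function in rods, had 1019, 1060 and 1149 in knockout arrays, against 918, 931 and 895 in wildtype arrays. Its groups did not overlap, with a log2 fold change of 0.23 ± 0.13 (SE). Higher knockout values without overlap occurred in 4.05% of all tested probe sets. Samd11, a photoreceptor corepressor, had 1358, 1787 and 1855 in knockout arrays, against 2000, 2153 and 1957 in wildtype arrays, a log2 fold change of -0.30 ± 0.15 (SE). Its groups did not overlap either, and the value was -0.16 without knockout array 1. Without rescaling it was 0.016, or -0.27 relative to the median of all. Thrb, the thyroid hormone receptor of cones, had -0.44, and Ldb1, a LIM domain cofactor, had -0.40 (-0.21 without knockout array 3). Groups without overlap were lower in the knockout for Samd11 and Thrb, and higher for Pias3 and Rax, 2 and 2 of 19. Over all tested probe sets 5.05% were lower and 4.05% higher without overlap.

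Genes of neighbouring fates showed no call either. Of 13 tested bipolar genes of the kind Prdm1 restrains, 0 passed (limma; 0 at an unadjusted p under 0.05) and 7 had positive values, with a median of 0.099 that was 0.011 without knockout array 1. Gng13, a G protein gamma subunit of ON bipolar cells, had 181, 114 and 120 in knockout arrays, against 89.9, 80.7 and 111 in wildtype arrays, a log2 fold change of 0.46 ± 0.22 (SE). It was 0.28 without knockout array 1. The transcription factor genes Irx5 and Bhlhe23 had 0.36 and -0.28, and Cabp5, a calcium-binding protein, had -0.20. Without knockout array 1 Irx5 was at 0.17, Bhlhe23 at -0.15 and Cabp5 at -0.088. Of 14 tested progenitor and Notch genes, 0 passed (limma; 0 at an unadjusted p under 0.05) and 9 had positive values, with a median of 0.098 that was 0.026 without knockout array 1. Their mean deviation from wildtype was 0.25 on knockout array 1 and 0.0068 and 0.0021 on knockout arrays 2 and 3. Six3, a progenitor homeobox gene, had 0.39, and Notch1, the receptor that delays photoreceptor birth, had 0.36 (0.19 without knockout array 3). Dll1 had 0.22 and Rbpj had -0.19, and without knockout array 1 they were at 0.13 and -0.13. The groups did not overlap for Rbpj, with lower knockout values, as in 5.05% of all tested probe sets. Of 12 tested amacrine and horizontal cell markers, 0 passed (limma; 0 at an unadjusted p under 0.05), with a median of 0.041 that was -0.0077 without knockout array 3 and -0.012 without wildtype array 3.

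**Figure D4:**
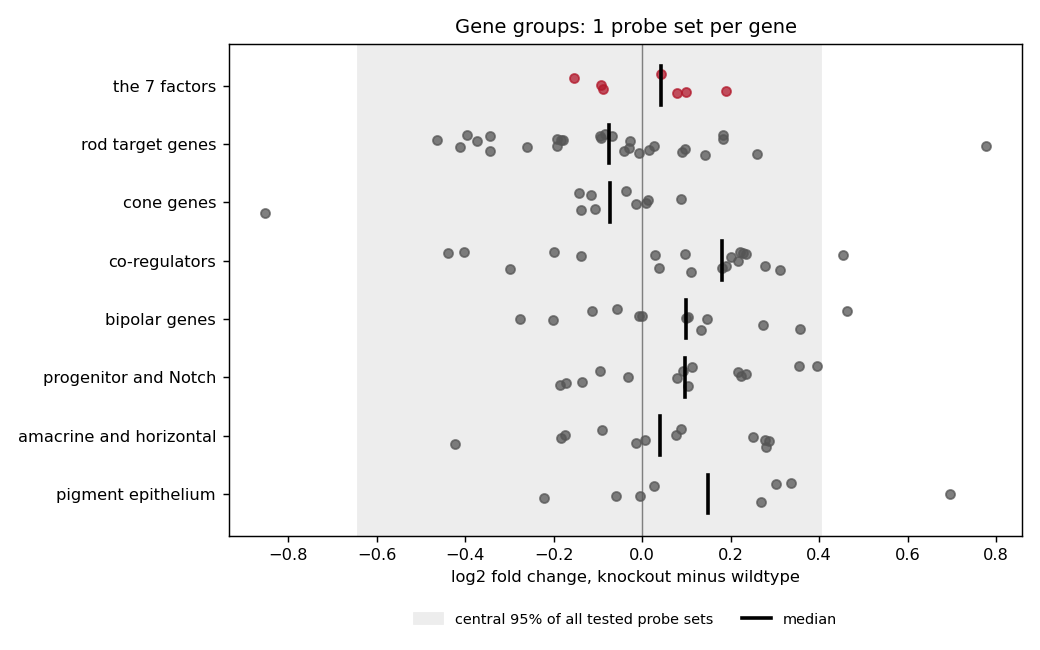
Log2 fold changes (horizontal axis, knockout minus wildtype) of the tested genes of 8 groups, 1 point per gene and a black bar for the median, with the central 95% of all tested probe sets shaded from -0.64 to 0.41. By the probe set of highest mean signal, all 7 transcription factors lie inside the shaded range, between -0.15 and 0.19. The second tested probe sets of Crx (-0.34) and Neurod1 (-0.04) are not drawn.

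Other cell sources of these RNAs varied between arrays. Pigment epithelium markers, of a cell type that also makes Otx2, summed to 2312 to 3581 over the 8 tested genes in knockout arrays and 1325 to 3313 in wildtype arrays. Of these 8, 5 had positive values (median 0.15) and 0 passed (limma; 0 at an unadjusted p under 0.05). The direction turned without wildtype array 2, with 6 of 10 tested genes negative (median -0.058), and without both that array and knockout array 1, with 8 of 8 negative (median -0.18). Lens markers summed to 291 to 1052 in knockout arrays and 144 to 1647 in wildtype arrays over 7 tested genes. All 7 had positive values with 6 arrays, but 5 of 7 were negative without wildtype array 1 (median -0.067) and 4 of 7 without wildtype array 2 (median -0.025). Immune and vessel markers, listed because Prdm1 is also made in blood-borne cells, summed to 2526 to 3222 in knockout arrays and 2377 to 2786 in wildtype arrays over 10 tested genes. An unadjusted limma p under 0.05 was found for 1 of the 10, Rgs5, against 3.82% of all tested probe sets. Positive values were found in 8 of the 10 markers. Their median was 0.17, and it was 0.086 without knockout array 1 (6 of 11 positive) and 0.082 without wildtype array 3 (6 of 10). Their mean deviation from wildtype was 0.35 on knockout array 1 and -0.037 and 0.091 on the other knockout arrays. Mueller glia markers summed to 8820 to 9583 in knockout and 8749 to 9477 in wildtype arrays. The part of these cells in the values of Otx2 and Prdm1 was not tested.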

How the data were processed

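Total RNA from retinae at postnatal day 7 was hybridised to Affymetrix arrays, 3 knockout and 3 wildtype. The deposited values are linear intensity values per probe set, and the submitters' processing notes name MAS5. The version, scaling target and detection calls are not given in the sources used here. From these, the 64 control probe sets were left out and each array was scaled to a common trimmed mean (2% removed from either end). A pseudocount of 19.1 (20th percentile of signal) preceded log2, which understates changes of dim probe sets. Probe sets with a mean above the 40th percentile were tested with limma 3.58.1 (R 4.3.3; lmFit, and eBayes with an intensity trend), and p-values were adjusted by Benjamini-Hochberg over all of them. The number of arrays limits the precision. The fit was tested on simulated data.

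Gene names are those of the platform annotation, brought up to date by Entrez identifier where one matched (20351 probe sets): 20380 probe sets had 1 symbol, 691 several and 1555 none. The members and lists were chosen with earlier results of these data known. Every member probe set is given, up to 4 genes of a main list (largest moderated t), and the 3 genes most alike in pattern. Of 8 member promoters that held a motif, 4 are printed. Alternatives covered scaling, pseudocount, filter, variance model, array weights, a replicate block and arrays left out. The targeted gene is not reported here.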

Additional observations from a re-analysis of the deposited data

How the results depend on the processing

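In 17 alternative settings the count of member probe sets, rod target genes, cone genes and co-regulators past the threshold stayed at 0. The count over all probe sets (2) was 10 without rescaling and 1 without a filter, where more probe sets were tested. It was 4 without both wildtype array 2 and knockout array 1, and with single arrays left out it ran from 0 (without wildtype array 3) to 4 (without wildtype array 2), with 1 without knockout array 2 or 3. Signs of small values turned. Median scaling and no rescaling moved the median of all probe sets to 0.088 and 0.29, and relative to these Crx (-0.088 and -0.068), Neurod1 (-0.082 and -0.062) and Nrl (-0.15 and -0.13) kept their sign. Crx (1418705_at) was 4.4e-05 with median scaling, 0.22 without rescaling, 0.0046 when arrays were weighted and 0.058 without both arrays of high 18S signal, and lay between -0.21 and 0.066 with single arrays left out. Neurod1 was 0.0058 with median scaling, 0.23 without rescaling and 0.00072 without both those arrays, and lay between -0.23 and 0.033 with single arrays left out. Nrl was 0.16 without rescaling, and lay between -0.22 and -0.085 with single arrays left out. With 1 array left out, Otx2 ranged from -0.021 to 0.19, Prdm1 from -0.14 to 0.19 and Rorb from 0.0019 to 0.15. Rorb and Esrrb kept their sign in each setting in which they were tested, and Esrrb lay under the filter at the 60th percentile. Apart from scaling and the fewer arrays, the cause was not tested. With the replicate number as a block, 2 probe sets and 0 of the 9 member probe sets passed. Arrays of the same number had correlations of deviations of 0.18, -0.029 and 0.084, so the numbers were not treated as pairs.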
